A study of Mus musculus with 19 samples.

Results

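This report covers 45 imprinted genes of the mouse and their total RNA level in visceral yolk sac endoderm (ysE), visceral yolk sac (VYS) mesoderm, fetal liver and cystic embryoid bodies (EBs). The genes were chosen by name, as members of known imprinted clusters and single imprinted loci, by a rule that uses no measured value but was written with earlier results of these data known. All 45 of the 45 names were found among the 23337 gene symbols of the table, and each gene was represented by the 1 of its transcripts whose count was highest on average, out of 30455 transcripts in all. The values do not separate the parental alleles, so they show how much RNA a gene gave and not from which chromosome.

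RNA-seq of total RNA without ribosomal RNA was available in 11 libraries. The tissues came from FVB mice, the embryos of 1 litter being pooled for a library. They comprised ysE at E12.5 (1 library) and E9.25 (2 libraries), VYS mesoderm at E9.25 (2 libraries) and liver at E12.5 (2 libraries). The mesoderm had been parted from the endoderm with dispase and kept its vessels and basement membrane. Cystic EBs, which are hollow balls grown from embryonic stem (ES) cells, were collected after 10 days (d10) and 15 days (d15) from each of the ES clones A9 (XY) and JN (XX), both from crosses of C57BL/6 and 129 mice. Each clone gave 1 library per day. In the order used throughout, the 4 cystic EB values are d10 A9, d10 JN, d15 A9 and d15 JN, and the values of the other tissues are replicate A and then B. Bisulfite sequencing (6 libraries) and H3K4me3 peaks (1 library) from the same study are used at the end. The bisulfite libraries came from F1 crosses of the CAST and FVB strains in either direction (called CxF or FxC), 1 library per direction for E12.5 ysE, E12.5 liver and d15 cystic EBs, where the ES clones were C2 (CxF) and A2 (FxC). The peaks came from whole VYS of FVB mice at E12.5.

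Imprinted genes are transcribed mainly from the copy inherited from 1 parent. They lie in clusters under an imprinting control region, a stretch of DNA that is methylated on only the maternal or only the paternal chromosome from the germ cells onward. In several clusters a long non-coding RNA is made from the unmethylated copy and neighbouring protein-coding genes are silenced on that chromosome. Many of the genes act on fetal and placental growth, and some clusters hold genes that are imprinted in most lineages beside others imprinted only in extra-embryonic tissue such as the placenta and the ysE.

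The libraries held between 40453779 (E12.5 ysE) and 169981821 (E9.25 ysE B) counts over all transcripts. The labelled tissues were checked against marker genes. The summed RPKM (reads per kilobase of transcript scaled to the depth of the library) of 6 ysE markers, Afp, Ttr, Amn, Cubn, Apoa2 and Apoc2, was 39857 for ysE at E12.5 and 9428 and 10627 for ysE at E9.25. Mesoderm had 1026 and 1806, liver 1535 and 2826, and cystic EBs 373, 107, 1211 and 456, where all 6 were detected in each library. The sum of the 5 liver markers did not single out the liver, with 519.5 and 1097 there against 1854 in E12.5 ysE. Most of the ysE sum came from Fgb (1508 RPKM against 99.8 and 194 in liver). Ahsg and Hnf4a were also higher in E12.5 ysE than in liver, and Serpina1a lay at similar levels. Alb went the other way, at 358 and 767 RPKM in liver and 80.5 in E12.5 ysE. Pluripotency markers (Pou5f1, Zfp42, Nanog, Dppa5a) summed to 79.1 to 317 in cystic EBs and to at most 6.09 elsewhere, and erythroid markers to 32458 to 42091 in mesoderm. Markers of other cell types moved with the cystic EBs as well. Their 5 VYS mesoderm markers summed to 142, 39.3, 169.7 and 195 RPKM against 18.9 to 46.4 in ysE, their 4 cardiac and skeletal muscle markers to 8.20 to 220.5 against at most 0.148, and their 4 neural markers to 3.83 to 12 against at most 0.297. The part of such cells in the results below was not tested, and in bulk RNA fewer cells of a type and less RNA per cell cannot be told apart. E9.25 tissues and clone JN were sequenced as dUTP libraries, liver and clone A9 as ScriptSeq libraries and E12.5 ysE as the only non-stranded library, so that clone and protocol cannot be told apart in cystic EBs, nor stage and protocol in ysE. Tissue and protocol likewise cannot be told apart where liver is set against E12.5 ysE or mesoderm, or cystic EBs against E12.5 ysE.

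The upstream sequences of 4 genes are shown because methylation at the starts of these genes is described below. Each is the run of 250 bases before an annotated start in RefSeq (build GRCm38.p6), read 5′ to 3′ on the strand of the gene, with each CG pair, the site of DNA methylation, in capitals.
Nnat, chr2:157559828-157560077, plus strand: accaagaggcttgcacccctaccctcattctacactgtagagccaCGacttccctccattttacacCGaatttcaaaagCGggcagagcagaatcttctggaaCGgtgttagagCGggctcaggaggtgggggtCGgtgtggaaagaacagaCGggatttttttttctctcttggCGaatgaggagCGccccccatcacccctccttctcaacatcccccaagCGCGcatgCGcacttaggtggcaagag
Snrpn and Snurf, chr7:60005200-60005449, minus strand: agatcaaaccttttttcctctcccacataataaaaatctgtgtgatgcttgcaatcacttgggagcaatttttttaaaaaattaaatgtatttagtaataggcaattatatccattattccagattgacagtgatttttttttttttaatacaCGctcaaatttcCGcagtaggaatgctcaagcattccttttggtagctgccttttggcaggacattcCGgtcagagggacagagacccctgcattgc
Mest, chr6:30737800-30738049, plus strand: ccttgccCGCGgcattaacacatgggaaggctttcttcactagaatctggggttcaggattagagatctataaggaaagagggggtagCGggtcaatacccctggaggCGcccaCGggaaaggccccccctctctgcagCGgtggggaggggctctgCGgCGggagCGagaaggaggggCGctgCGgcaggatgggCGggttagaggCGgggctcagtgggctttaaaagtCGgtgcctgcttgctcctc
Plagl1, chr10:13090582-13090831, plus strand: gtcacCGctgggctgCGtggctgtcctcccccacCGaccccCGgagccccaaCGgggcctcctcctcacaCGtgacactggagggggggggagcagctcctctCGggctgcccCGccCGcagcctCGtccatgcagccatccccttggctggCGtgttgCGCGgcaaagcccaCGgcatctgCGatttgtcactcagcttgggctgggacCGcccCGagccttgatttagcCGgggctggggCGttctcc
The Snrpn window held 3 CG pairs against 12 before Nnat, 14 before Mest and 19 before Plagl1. RefSeq starts were at hand for 36 of the 45 genes (55 starts, the start of Snrpn and Snurf being shared), and the median over their windows was 8 CG pairs against 6 over all 32817 windows of the table. The letters TGCCGC, known as the methylated motif bound by the imprint-keeping zinc finger protein ZFP57, were found on either strand in 8 of 55 windows (14.5%) against 8.68% of all windows. They occurred in Zdbf2, in both overlapping Mest windows, and in Copg2, Zim1, Plagl1, Meg3 and Slc22a2. No start was used for H19, Cdkn1c, Kcnq1, Rtl1, Peg10, Sgce, Nespas, Impact and Dcn.

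Over the 11 libraries, the values of the genes ran from no reads (Slc22a2 in liver A and Magel2 in liver B) to 6131 RPKM (H19 in E12.5 ysE). Between 34 and 40 of the 45 were at 1 RPKM or more in a given library, and together they took 0.451% (d10 JN) to 2.53% (E12.5 ysE) of all counts. H19, a non-coding RNA made from the maternal chromosome, was the most abundant in 9 of 11 libraries and ranked 3 in both JN libraries. It alone gave 74.8% of the summed RPKM of the 45 genes in E12.5 ysE and 8.06% in d10 JN. By group mean, ysE had the highest level of 11 genes at E12.5 and of 4 at E9.25, mesoderm of 10, liver of 9 and cystic EBs of 11. In the same order, the lowest level was that of 11, 14, 2, 14 and 4 genes. The value of E12.5 ysE is that of 1 library. These counts were not made over all transcripts, so nothing is read from them.

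**Figure D1:**
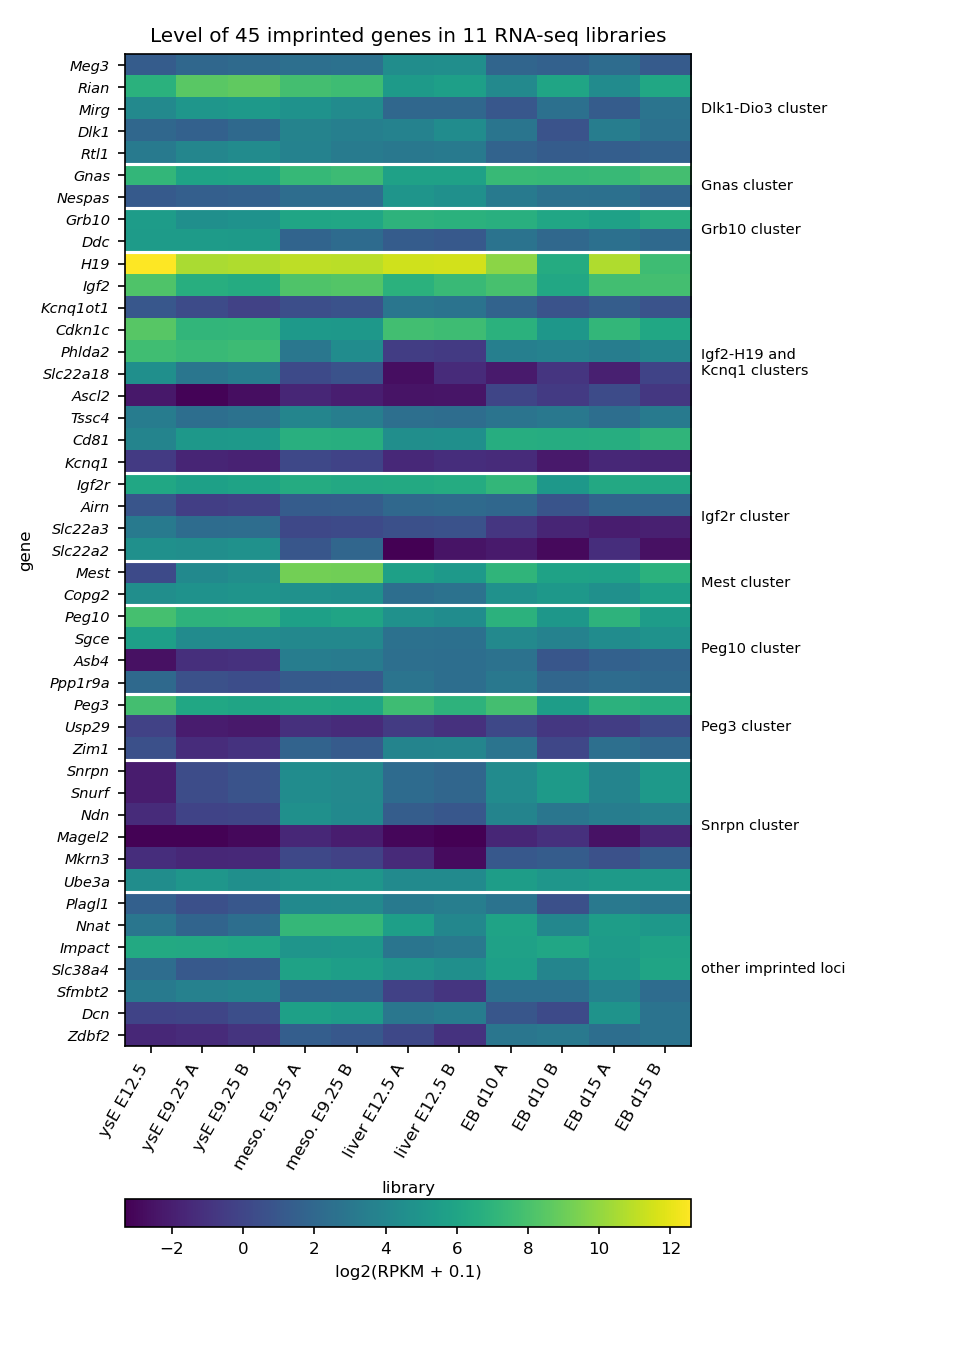
Colour shows log2(RPKM + 0.1) of the 45 imprinted genes (rows, grouped by cluster) in the 11 RNA-seq libraries (columns). Slc22a2 was high in the 3 ysE libraries (23.2 to 25.9 RPKM) and low in liver and cystic EBs (at most 0.327), whereas Snrpn and Snurf were lowest in E12.5 ysE (0.129).

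The first question of the design is how far cystic EBs, used as a culture model of extra-embryonic endoderm, have the RNA levels of the ysE. Against E12.5 ysE, cystic EBs had more RNA of 8 of the 45 genes and less of 15 at a false discovery rate (FDR) of 5% (edgeR's quasi-likelihood test over all transcripts), where 21.1% of all tested transcripts were higher and 18.8% lower. Against E9.25 ysE, 18 were higher and 11 lower, beside 27.1% and 23.2% of all transcripts. The median log2 fold change of the 45 genes was -0.03 against E12.5 and 0.57 against E9.25 ysE, with 0.423 and 0.174 over all transcripts tested. On the scale of normalised counts, all libraries of a called gene among the 45 lay on the same side of those of the other group, here and in the comparisons that follow, and in RPKM this held for all but Meg3 and Sfmbt2 against E9.25 ysE. Both comparisons use the same 4 cystic EB libraries. The test counts these as 4 replicates, though d10 and d15 share a clone, so p-values cannot speak for clones beyond A9 and JN. The single E12.5 ysE library takes its spread from the other groups. In a fit of only the cystic EB and E12.5 ysE libraries, 9 of the 45 genes were higher and 8 lower, beside 14.3% and 13.2% of all transcripts.

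In the Igf2r cluster on chromosome 17, Slc22a2 and Slc22a3 were far below ysE in cystic EBs. Slc22a2 (chr17:12584189-12628489), an organic cation transporter imprinted in extra-embryonic tissue, was at 24.9 RPKM in ysE at E12.5 and at 23.2 and 25.9 there at E9.25, with 1.83 and 3.72 for mesoderm, 0 and 0.0800 for liver and 0.118, 0.0330, 0.327 and 0.0640 for the cystic EBs. The cystic EB values rest on 16, 8, 40 and 17 counts, against 2297 to 9936 counts in ysE. It was thus 251-fold below E12.5 ysE in cystic EBs (log2 fold change -7.97 ± 0.99 SE, adjusted p = 0.0003) and 262-fold lower than in E9.25 ysE (-8.03 ± 0.94, adjusted p = 0.00016). Its neighbour and relative Slc22a3 (chr17:12419972-12507704) was at 9.11 RPKM (E12.5) and 4.74 and 5.0 (E9.25) for ysE, 0.981 and 1.08 for mesoderm, 1.35 and 1.53 for liver and 0.479, 0.211, 0.145 and 0.166 for cystic EBs. No cystic EB library reached the level of any tissue, and the fold was 47.3 below E12.5 ysE (adjusted p = 5.2e-05) and 26.8 below E9.25 ysE (adjusted p = 5.4e-05).

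The other genes of that cluster did not follow. Igf2r (chr17:12682406-12769706), the receptor that carries the growth factor IGF2 to the lysosome, was at 70.2 RPKM in ysE at E12.5 and at 52.3 and 58.7 there at E9.25, with 88.6 and 78.3 for mesoderm, 80.4 and 88.2 for liver and 149.8, 35.4, 76.0 and 72.6 for the cystic EBs. Cystic EB libraries lay on both sides of every tissue, and Igf2r was called in none of the 7 comparisons between tissues (log2 fold change in cystic EBs -0.12 ± 0.56 against E12.5 and 0.14 ± 0.44 against E9.25 ysE). Airn (chr17:12741311-12859884), the non-coding RNA that runs antisense through Igf2r and is known to silence the cluster on the paternal chromosome, was at 1.74 RPKM (E12.5) and 0.665 and 0.746 (E9.25) for ysE, 2.35 and 2.5 for mesoderm, 3.98 and 4.36 for liver and 3.88, 1.62, 3.46 and 3.23 for cystic EBs. It was 3.16-fold higher in cystic EBs than in E9.25 ysE (1.66 ± 0.38, adjusted p = 0.0058) and was not called against E12.5 ysE. The ratio of Igf2r to Airn in RPKM was 78.6 and 78.7 in E9.25 ysE and 21.9 to 38.6 in cystic EBs. It was 40.3 in E12.5 ysE, 37.7 and 31.3 in mesoderm and 20.2 in both liver libraries. The Airn value is that of 1 of its 4 annotated transcripts, so the ratio of this pair need not hold for the whole RNA. Whether the deposited counts use the strand of a read is not given in the sources used here, so reads in the shared stretch of this pair may have gone to either gene. The same limit holds for Kcnq1ot1 with Kcnq1 and for Nespas with Gnas. It also holds where Rtl1 overlaps Meg3 and Rian, and where Mest overlaps Copg2.

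In the Igf2-H19 and Kcnq1 clusters on distal chromosome 7, Phlda2, Slc22a18, Cdkn1c and H19 were lower in cystic EBs than in ysE of one or both stages. Phlda2 (chr7:143501545-143503145), known to limit placental growth, was at 210.4 RPKM in ysE at E12.5 and at 172 and 191 there at E9.25, with 7.72 and 21.3 for mesoderm, 0.643 and 0.551 for liver and 11.8, 13.4, 10.7 and 14.9 for the cystic EBs. The 4 cystic EB libraries sat close together, 21.4-fold below E12.5 ysE (adjusted p = 5.2e-05), 19.5-fold below E9.25 ysE (adjusted p = 3.2e-05) and 16.8-fold above liver (adjusted p = 0.00014). The transporter gene Slc22a18 (chr7:143473726-143499334) was at 24.3 RPKM (E12.5) and 7.49 and 9.98 (E9.25) for ysE, 1.07 and 1.49 for mesoderm, 0.05 and 0.289 for liver and 0.123, 0.450, 0.158 and 0.809 for cystic EBs. Its folds below ysE were 80.3 at E12.5 and 30.6 at E9.25 (adjusted p = 0.00037 and 0.00058).

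Cdkn1c (chr7:143458339-143461059), an inhibitor of cyclin-dependent kinases, was at 348 RPKM in ysE at E12.5 and at 140.4 and 149 there at E9.25, with 39.0 and 35.9 for mesoderm, 222 and 204 for liver and 116, 34.3, 148 and 70.9 for the cystic EBs. It was 4.81-fold below E12.5 ysE in cystic EBs (adjusted p = 0.0089), while d15 A9 lay within the RPKM of E9.25 ysE, and the test against that stage did not call it (adjusted p = 0.072). H19 (chr7:142575530-142578146) was at 6131 RPKM (E12.5) and 1520 and 1647 (E9.25) for ysE, 2046 and 1963 for mesoderm, 2772 and 2937 for liver and 908, 88.9, 1616 and 197 for cystic EBs. The low values were those of clone JN, and the gene was 11-fold lower than in E12.5 ysE (-3.46 ± 1.0, adjusted p = 0.022) but not called against E9.25 ysE (-1.59, adjusted p = 0.15). Within the dUTP libraries alone, clone JN against E9.25 ysE, H19 was lower by a log2 fold change of -3.84 (adjusted p = 0.00015). In that fit d10 and d15 of JN stand as replicates, so the p-value covers this clone only.

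Igf2 (chr7:142650768-142666816), the growth factor made from the paternal chromosome of the same locus, was at 296 RPKM in ysE at E12.5 and at 98.5 and 89.1 there at E9.25, with 292 and 322 for mesoderm, 114 and 173 for liver and 247, 72.6, 215 and 229 for the cystic EBs. Like Igf2r it was called in no comparison between tissues, and its ratio to H19 was 0.0411 to 0.164 in the tissues and 0.272, 0.817, 0.133 and 1.16 in cystic EBs. Cd81 (chr7:143052750-143067930), a cell surface tetraspanin, was at 14.5 RPKM (E12.5) and 35.7 and 39.5 (E9.25) for ysE, 104 and 102 for mesoderm, 23.1 and 23.8 for liver and 94.6, 93.1, 96.1 and 137 for cystic EBs. All 4 cystic EB libraries were above both ysE stages, by 5.62-fold at E12.5 (adjusted p = 0.00022) and 2.04-fold at E9.25 (adjusted p = 0.0022). Tssc4 was at 10.1 RPKM in ysE at E12.5 and at 5.36 and 6.32 there at E9.25, with 15.2 and 11.3 for mesoderm, 5.59 and 5.10 for liver and 6.95, 8.17, 5.28 and 8.97 for the cystic EBs, a 1.79-fold lower level than in E12.5 ysE (adjusted p = 0.047) whose call was lost when any single E9.25, liver or clone A9 library was left out.

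Kcnq1ot1 (chr7:143213111-143296547), the non-coding RNA that silences the Kcnq1 cluster, was at 1.88 RPKM (E12.5) and 1.12 and 0.791 (E9.25) for ysE, 1.30 and 1.53 for mesoderm, 7.64 and 6.47 for liver and 3.29, 1.60, 2.52 and 1.58 for cystic EBs. It was highest in both liver libraries and was not called in cystic EBs against either ysE stage. Kcnq1, the potassium channel gene it lies within, stayed below 1 RPKM in all 11 libraries and was 3.32-fold below E12.5 ysE in cystic EBs (adjusted p = 0.022). Ascl2, a transcription factor of trophoblast, was at 0.101 RPKM in ysE at E12.5 and at 0.0100 and 0.0480 there at E9.25, with 0.222 and 0.148 for mesoderm, 0.0820 and 0.0890 for liver and 0.893, 0.555, 1.12 and 0.510 for the cystic EBs. With 91 to 103 counts per cystic EB library against 2 and 14 in E9.25 ysE, it was 18.2-fold higher there (4.18 ± 0.75, adjusted p = 0.0016). The 5 trophoblast markers summed to 4.14, 1.26, 40.8 and 4.26 RPKM in cystic EBs and to 10.4 and 12.8 in E9.25 ysE.

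**Figure D2:**
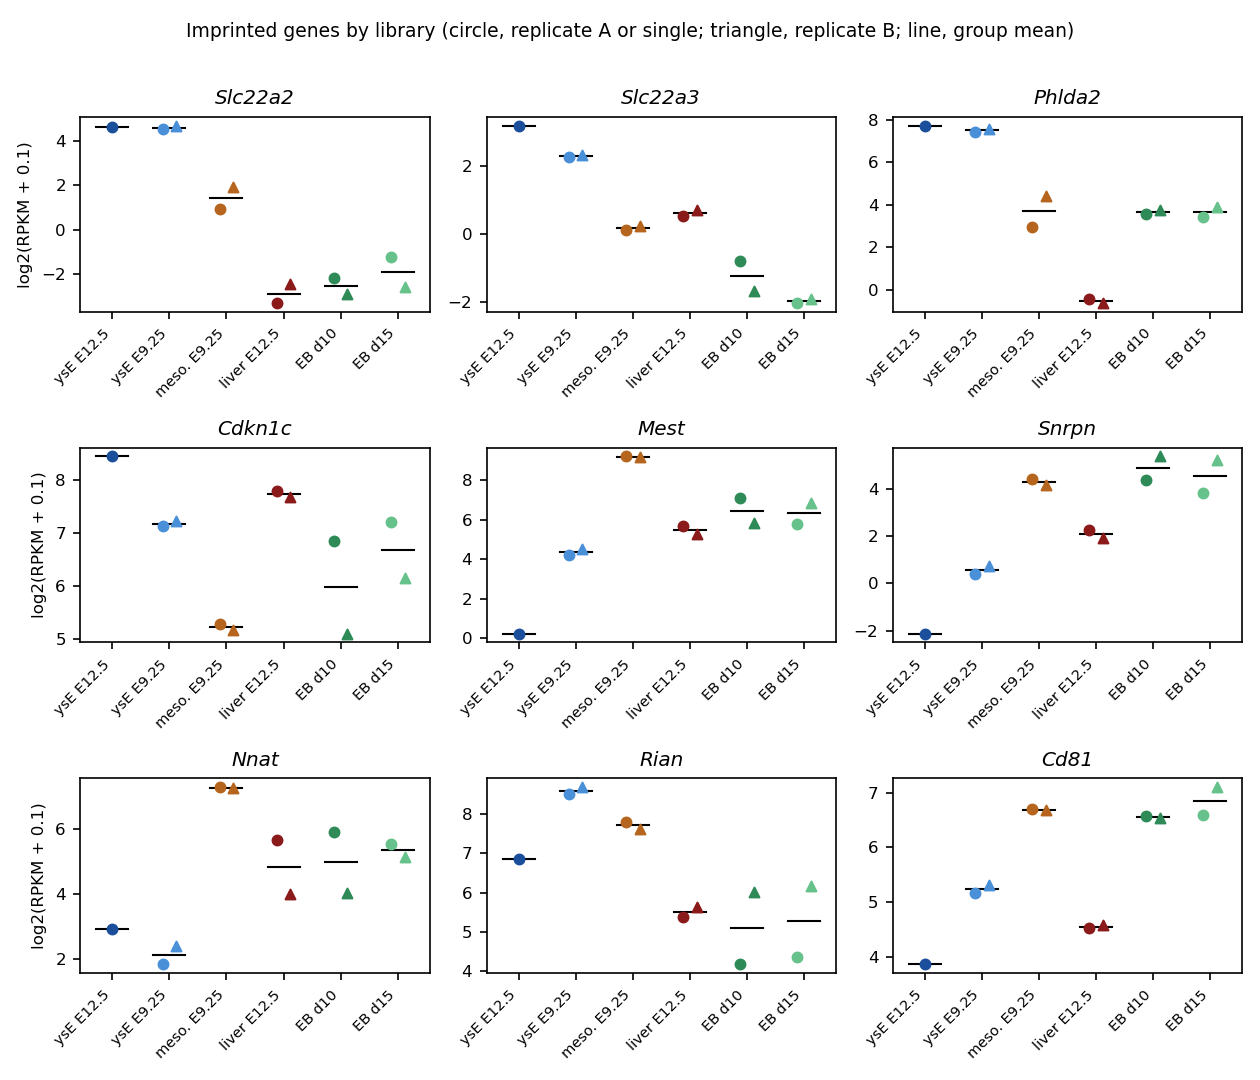
Each panel plots log2(RPKM + 0.1) of 1 gene by tissue, stage and day, with circles for replicate A or the single library, triangles for replicate B and a line at the group mean. Slc22a2, Slc22a3 and Phlda2 were highest in ysE, Mest, Nnat and Snrpn lowest in ysE of either stage, Cd81 lowest in E12.5 ysE, and Rian was split within cystic EBs between clone A9 (18 and 20.5 RPKM) and clone JN (64.6 and 72).

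In the Snrpn cluster of chromosome 7, the region deleted in Prader-Willi and Angelman syndromes in humans, 3 of 6 genes were higher in cystic EBs at E12.5 and 5 of 6 at E9.25, beside 21.1% and 27.1% of all transcripts. The row of Snrpn, a spliceosomal protein, and that of Snurf, which is made from the same transcript, held the same values in every library and are 1 measurement, which every count of the 45 genes and of this cluster takes as 2 genes. They were at 0.129 RPKM in ysE at E12.5 (11 counts) and at 1.21 and 1.55 there at E9.25, with 21.4 and 18 for mesoderm, 4.64 and 3.73 for liver and 20.6, 41.1, 14.2 and 36.9 for cystic EBs. All cystic EB libraries were thus far above the ysE, by 167-fold at E12.5 (7.39 ± 0.82, adjusted p = 0.00017) and 14.8-fold at E9.25 (3.89 ± 0.46, adjusted p = 0.00018). This pair was called in each of the 7 comparisons between tissues.

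Its paternally expressed neighbours were also low in ysE. Ndn, a MAGE family protein of neurons, was at 0.295 RPKM in the E12.5 ysE library and at 11.3 ± 2.92 (SD, n = 4) in cystic EBs, 29.5-fold higher (adjusted p = 0.00014). Mkrn3, a ring finger protein, was at 0.328 RPKM (E12.5) and 0.247 and 0.254 (E9.25) for ysE, 0.972 and 0.765 for mesoderm, 0.264 and 0.0410 for liver and 1.99, 2.37, 1.42 and 2.68 for cystic EBs, 6.14-fold above E9.25 ysE (adjusted p = 0.0077). Magel2, a ubiquitin ligase regulator, stayed below 1 RPKM everywhere, with 1 count (E12.5) and 4 and 24 counts (E9.25) for ysE, 131 and 90 for mesoderm, 10 and 0 for liver and 65, 193, 20 and 130 for cystic EBs. Of these neighbours, Ndn was higher in cystic EBs than in both ysE stages, and Magel2 and Mkrn3 were called against E9.25 ysE. Both of these calls were lost when either E9.25 ysE library was left out, and that of Magel2 also without mesoderm A, d10 A9, d10 JN or d15 JN. Ube3a, the maternally expressed ubiquitin ligase of this region, was between 19.5 and 46.7 RPKM in the 11 libraries and was not called against ysE.

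Mest and the genes around Peg10 on chromosome 6 differed among themselves. Mest (chr6:30733506-30748466), a hydrolase family gene named for its expression in mesoderm, was at 1.07 RPKM in ysE at E12.5 and at 18.4 and 22.9 there at E9.25, with 586 and 566 for mesoderm, 51.8 and 37.8 for liver and 134, 56.7, 54.2 and 116 for the cystic EBs. Every cystic EB library was above every ysE library and below both mesoderm libraries, with a fold of 64.7 over E12.5 ysE (6.02 ± 0.72, adjusted p = 0.00025) and 3.16 over E9.25 ysE (adjusted p = 0.0072). Its neighbour Copg2, a coat protein of Golgi vesicles, was at 23.0 to 29.9 RPKM in ysE and 24.7 to 50.7 in cystic EBs and was not called. Asb4, which recruits targets for ubiquitination, was at 0.0640 RPKM in ysE at E12.5 (9 counts) and at 0.344 and 0.384 there at E9.25, with 10.6 and 9.89 for mesoderm, 5.60 and 5.20 for liver and 6.30, 1.84, 3.02 and 3.56 for cystic EBs, 44.5-fold above E12.5 and 7.36-fold above E9.25 ysE (adjusted p = 0.00061 and 0.00081).

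Peg10 (chr6:4747306-4760517), a gene derived from a retrotransposon and needed for the placenta, was at 239 RPKM (E12.5) and 123 and 129.7 (E9.25) for ysE, 53.6 and 63.7 for mesoderm, 26.5 and 21.0 for liver and 120.2, 34.5, 127 and 44.7 for cystic EBs. It was 3.73-fold below E12.5 ysE in cystic EBs (adjusted p = 0.03, lost without d15 JN) and was not called against E9.25 ysE, where the clone A9 libraries were level with ysE and the JN libraries below. Sgce, a sarcoglycan that shares a promoter region with Peg10, was at 51.3 RPKM in ysE at E12.5 and at 20.5 and 20.1 there at E9.25, with 17.3 and 16.9 for mesoderm, 6.01 and 5.73 for liver and 17.6, 13.4, 21.5 and 27.2 for the cystic EBs, 3.33-fold below E12.5 ysE (adjusted p = 0.0014). Ppp1r9a, the actin-binding protein neurabin, was at 4.17 RPKM (E12.5) and 1.45 and 1.25 (E9.25) for ysE, 2.15 and 2.29 for mesoderm, 6.80 and 5.30 for liver and 8.26, 3.71, 4.79 and 4.26 for cystic EBs. It was 2.84-fold higher in cystic EBs than in E9.25 ysE (adjusted p = 0.0047).

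In the Dlk1-Dio3 cluster of chromosome 12, cystic EBs had less RNA than ysE for 3 of 5 genes at E12.5 and for 4 of 5 at E9.25, where 18.8% and 23.2% of all transcripts were lower. The call of Rian at E12.5 and that of Meg3 at E9.25 were lost when most of the single libraries were left out. Rian (chr12:109603945-109661716), the host of many small nucleolar RNAs, was at 116 RPKM in ysE at E12.5 and at 361 and 409 there at E9.25, with 223 and 196 for mesoderm, 41.2 and 49.5 for liver and 18, 64.6, 20.5 and 72 for the cystic EBs. Mirg, a microRNA host, was at 17.5 RPKM (E12.5) and 32.5 and 37.6 (E9.25) for ysE, 27.8 and 20.3 for mesoderm, 3.82 and 3.94 for liver and 1.86, 5.69, 2.42 and 6.86 for cystic EBs. The call of Rian below E12.5 ysE (3.45-fold, adjusted p = 0.04) ended without any single E9.25 or liver library or d15 A9. Both maternal RNAs were highest in E9.25 ysE and split cystic EBs by clone, which here is also a split by protocol. Their folds below E9.25 ysE were 12.1 for Rian (adjusted p = 0.00045) and 11.4 for Mirg (adjusted p = 0.00024), log2 fold changes of -3.60 and -3.51. Within the dUTP libraries, clone JN against E9.25 ysE, these were smaller, at -2.85 for Rian and -2.84 for Mirg. Meg3, the long non-coding RNA at the head of that maternal transcription unit, was at 2.36 RPKM in ysE at E12.5 and at 3.90 and 4.49 there at E9.25, with 5.60 and 5.94 for mesoderm, 22.3 and 22.7 for liver and 3.49, 3.02, 4.73 and 2.31 for the cystic EBs. Meg3 was therefore highest in liver, where Rian was low, and its call below E9.25 ysE (1.68-fold, adjusted p = 0.049) was lost with the DESeq2 size factors and when any single library other than d15 A9 or that of E12.5 ysE was left out. Rtl1, the paternal retrotransposon-derived gene, was 8.55-fold lower than in E9.25 ysE (adjusted p = 1.6e-05). Its stretch overlaps Meg3 and Rian, so the limit on strand given for Airn holds here too. Dlk1, a ligand-like transmembrane protein, was not called against either stage.

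The remaining loci gave differences in both directions. Zdbf2, a zinc finger gene, was at 7.32, 8.35, 5.22 and 6.42 RPKM in cystic EBs against 0.239 to 0.417 over the ysE libraries, a fold of 22.2 (E12.5) and 14.2 (E9.25). Slc38a4, an amino acid transporter, averaged 40.4 ± 19.8 RPKM (SD, n = 4) against 2.09 to 4.99 in ysE, 6.22-fold above E12.5 and 13.1-fold above E9.25 ysE. Sfmbt2, a polycomb group gene, was at 8.76 RPKM (E12.5) and 12.7 and 14.6 (E9.25) for ysE, 3.30 and 3.38 for mesoderm, 0.731 and 0.455 for liver and 5.66, 5.82, 13.2 and 4.87 for cystic EBs, 2.49-fold below E9.25 ysE (adjusted p = 0.022, no longer called when either E9.25 ysE library was left out). Ddc, the decarboxylase that makes dopamine and serotonin, was at 42.3 RPKM in ysE at E12.5 and at 41.5 and 40.4 there at E9.25, with 3.42 and 4.52 for mesoderm, 2.35 and 2.10 for liver and 6.54, 3.96, 5.87 and 4.21 for the cystic EBs, 10.6- and 10.8-fold below the ysE stages. Impact, a translation regulator, was lower by 1.83-fold and 1.80-fold.

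Nnat, a small membrane protein first found in newborn brain, was at 7.51 RPKM (E12.5) and 3.45 and 5.20 (E9.25) for ysE, 157 and 154 for mesoderm, 50.5 and 16 for liver and 60.2, 16.2, 46.6 and 35.2 for cystic EBs, and was 6.70-fold higher in cystic EBs than in E9.25 ysE (adjusted p = 0.0051), a call that, like those of Mest and Impact against this stage, was lost without ysE A. Gnas (2.17-fold higher), the stimulatory G protein alpha subunit, and Grb10 (2.31-fold), an adaptor that damps insulin signalling, were called against E9.25 ysE and not against E12.5 ysE, as were Usp29 (4.81-fold) and Zim1 (9.13-fold) of the Peg3 cluster. Called against neither stage, beside those named, were Peg3, a zinc finger gene (46.9 to 225 RPKM in cystic EBs), Plagl1, a zinc finger inhibitor of cell division (1.4 to 8.36), Nespas, an antisense RNA of the Gnas locus (3.74 to 8.74), and Dcn, a matrix proteoglycan (1.10 to 29.0). The sum of the 5 VYS mesoderm markers was higher in 3 of the 4 cystic EB libraries than in any ysE library. Of the markers, 3 were called higher against E12.5 and 2 against E9.25 ysE, and Col1a1 (2.43 to 20.7 RPKM in cystic EBs, 7.33 to 15.5 in ysE) overlapped. The part of such cells in the higher levels of Mest, Asb4, Nnat, Ndn, Slc38a4 and Cd81 was not tested.

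**Figure D3:**
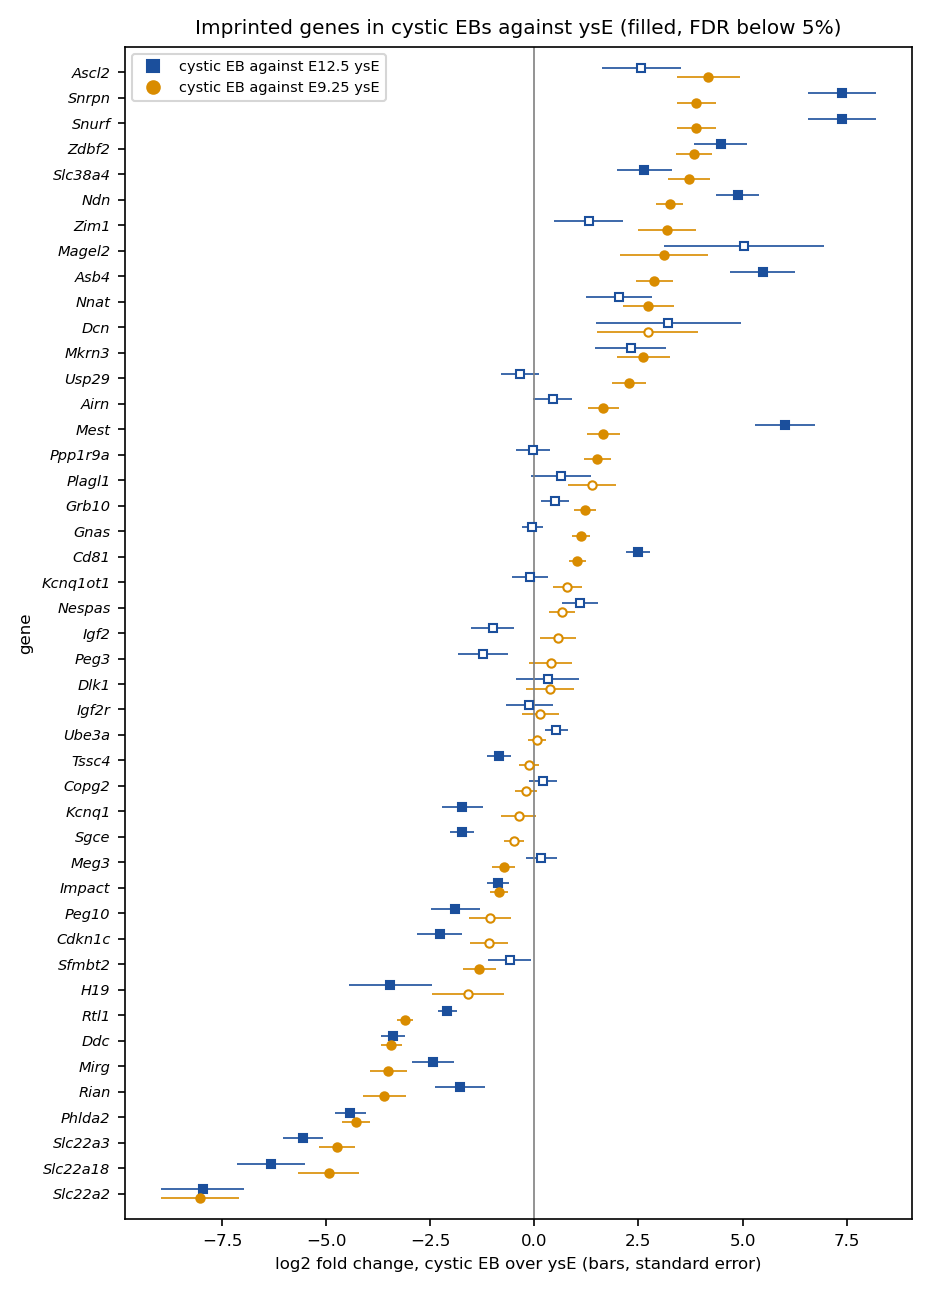
Points give the log2 fold change of each of the 45 genes in cystic EBs against E12.5 ysE and against E9.25 ysE, with bars of 1 SE and filled symbols for an FDR below 5%. The points run from Slc22a2 (-7.97) to Snrpn and Snurf (7.39) against E12.5 ysE, and from Slc22a2 (-8.03) to Ascl2 (4.18) against E9.25 ysE.

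The genes can also be grouped by where their imprinting is found, a choice that rests in part on these samples and so no independent evidence of a direction. Of 6 genes taken as imprinted in many lineages (Igf2r, Airn, Cdkn1c, Kcnq1ot1, Peg10 and Igf2), cystic EBs exceeded ysE in 0 and fell below it in 2 at E12.5, and exceeded it in 1 and fell below it in 0 at E9.25. Of 6 taken as imprinted in extra-embryonic lineages (Cd81, Tssc4, Sfmbt2, Ppp1r9a, Slc22a3 and Slc22a2), the counts were 1 above and 3 below at E12.5, and 2 above and 3 below at E9.25. Cd81 and Ppp1r9a were the members that were higher. With 6 genes a list, nothing is read from these counts beside the 21.1% higher and 18.8% lower of all transcripts at E12.5 and 27.1% and 23.2% at E9.25.

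Against fetal liver, the embryonic organ of the design, where erythroid markers summed to 2160 and 3185 RPKM, 16 of the 45 genes were higher and 9 lower in cystic EBs, beside 24.6% and 20.9% of all transcripts, with a median log2 fold change of 0.12 for the genes and 0.204 for all transcripts. All 6 genes of the Snrpn cluster, which are 5 measurements, were higher, among them Snrpn and Snurf by 5.31-fold, Ndn by 4.05-fold and Ube3a by 1.64-fold. The largest differences were Phlda2 at 16.8-fold, Magel2 at 13.9-fold (3.8 ± 1.15, adjusted p = 0.023, on 10 and 0 counts in liver) and Mkrn3 at 10.7-fold (adjusted p = 0.0031). Sfmbt2 was 10.0-fold, Zdbf2 7.86-fold, Ascl2 7.13-fold and Impact 5.70-fold higher, and Copg2, Cd81, Sgce, Gnas and Ddc by 4.68-fold to 1.84-fold.

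Lower than in liver were Meg3, by 8.28-fold (-3.05 ± 0.28, adjusted p = 5.8e-05), Slc22a3, by 7.31-fold (adjusted p = 0.0006), and Nespas, by 5.75-fold (adjusted p = 0.00019). Nespas was at 2.21 RPKM in ysE at E12.5 and at 2.70 and 2.92 there at E9.25, with 5.01 and 5.14 for mesoderm, 30.8 and 25 for liver and 8.74, 6.11, 5.78 and 3.74 for the cystic EBs, so both liver libraries lay above all others, with the limit on strand given for Airn. Zim1, Kcnq1ot1, Rtl1, Dlk1, Cdkn1c and Grb10 were lower by 4.25-fold to 1.84-fold. Slc22a2 and Slc22a18, the transporters that separated cystic EBs from ysE, were not called against liver. Within the ScriptSeq libraries, clone A9 against liver, 27 of the 45 genes were called (21.8% of all transcripts higher and 22.2% lower in this fit), among them 23 of these 25, with Grb10 and Magel2 no longer called. Added were Peg10, higher in cystic EBs (log2 fold change 2.08, adjusted p = 0.0023), and 3 lower genes. These were Rian (-1.53, adjusted p = 0.0038), H19 (-1.47, adjusted p = 0.023) and Mirg (-1.15, adjusted p = 0.035). Over all libraries Rian was at -0.40 and Mirg at -0.22. The cystic EB libraries of this fit are all of A9, so its p-values cover that clone only. When either liver library was left out, the calls of Ascl2, Ddc, Ube3a, Cdkn1c, Grb10 and Zim1 were lost, and without liver B those of Magel2 and Dlk1. Cdkn1c and Dlk1 were also lost without d15 JN.

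Fetal liver and E12.5 ysE are an embryonic and an extra-embryonic tissue of the same stage. They differ in library protocol as well, so tissue and protocol cannot be told apart. Erythroid markers summed to 2160 and 3185 RPKM in liver and 223 in ysE. VYS mesoderm markers were at 105 and 77.5 against 18.9, and cardiac and skeletal muscle markers at 10.2 and 4.71 against 0.06. The sums of ysE markers (1535 and 2826 against 39857), liver markers (519.5 and 1097 against 1854) and pluripotency markers (0.07 and 0.01 against 2.58) went the other way. Of the liver markers, Fgb gave most of the ysE sum, and Alb was higher in liver (358 and 767 RPKM against 80.5). The part of such cells in the differences was not tested. Liver and ysE differed in 25 of the 45 genes, 12 higher and 13 lower in liver (23.7% and 22.6% of all transcripts, median log2 fold change -0.18 against 0.256 over all). Highest over ysE were Asb4 at 82.6-fold (adjusted p = 0.00033), Mest at 41.0-fold (adjusted p = 0.00036) and the pair Snrpn and Snurf at 31.5-fold (adjusted p = 0.00074). In the ysE library these genes were at 0.0640 to 1.07 RPKM, and in liver at 3.73 to 51.8. Nespas (12.4-fold), Zim1 (10.5-fold), Meg3 (9.30-fold) and Ndn (7.28-fold) followed, and Slc38a4, Kcnq1ot1, Zdbf2 and Grb10 were higher by 5.52-fold to 2.58-fold.

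Lower in liver were Phlda2 by 359-fold (-8.49 ± 0.57, adjusted p = 3.4e-05) and Slc22a18 by 149.5-fold (adjusted p = 0.00088). Slc22a2 had 0 and 13 counts in the liver libraries against 2297 in ysE (adjusted p = 0.00079), where 0 counts allow up to 3 by counting error alone. Ddc (19.5-fold), Sfmbt2 (15.1-fold), Impact (10.4-fold), Peg10 (10.3-fold), Sgce (8.94-fold) and Slc22a3 (6.46-fold) were lower as well, with Mirg, Copg2, Gnas and Tssc4 lower by 4.60-fold to 1.94-fold. The call of Mirg was lost when either liver library was left out, those of Grb10 and Kcnq1ot1 without liver A, and those of Zdbf2 and Tssc4 when most of the single libraries were left out.

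In E12.5 against E9.25 ysE, 3 genes were higher and 4 lower, beside 3.90% and 4.57% of all transcripts (median 0.26 against -0.205 over all). The count depended on the fit, with 12 called by DESeq2's test (9.29% and 8.64% of all transcripts) and 31 in a fit of only these libraries (25.1% and 25.2%). Usp29, a ubiquitin peptidase next to Peg3, was at 0.795 RPKM (E12.5) and 0.136 and 0.111 (E9.25) for ysE, 0.360 and 0.280 for mesoderm, 0.570 and 0.378 for liver and 0.998, 0.508, 0.630 and 1.14 for cystic EBs, 6.08-fold higher at E12.5 (adjusted p = 0.016). Gnas, at 145 RPKM in ysE at E12.5 and at 59.2 and 63.0 there at E9.25, with 159 and 189 for mesoderm, 55.2 and 55.9 for liver and 171, 159, 169 and 228 for the cystic EBs, was 2.24-fold higher (adjusted p = 0.03, lost when any E9.25 or liver library was left out), and Sgce 2.38-fold (adjusted p = 0.05, lost when any E9.25 or liver library or d10 A9 was left out). Lower at E12.5 were Mest by 20.5-fold (-4.36 ± 0.67, adjusted p = 0.0069), Snrpn and Snurf by 11.3-fold (adjusted p = 0.019) and Cd81 by 2.76-fold (adjusted p = 0.016). The stages also differ in library protocol, and when either of the E9.25 ysE libraries was left out 1 of the 45 genes, Mest, was called (0.622% of all transcripts higher and 0.797% lower without A, 0.752% and 0.833% without B). Markers of some other cell types were also lower at E12.5. The erythroid sum was 223 RPKM against 821 and 986 at E9.25, the VYS mesoderm sum 18.9 against 28.7 and 46.4, Kdr 0.051 against 1.71 and 2.58 and Pecam1 0.035 against 0.684 and 1.20, with 2 of 5 markers of each list called lower. The sum of the liver markers went the other way, at 1854 RPKM against 372 and 441. The part of such cells in these differences was not tested.

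The layers of the yolk sac at E9.25 differed in more of these genes. In mesoderm against ysE, 18 were higher and 9 lower, where 16.9% and 13.7% of all transcripts were, and the median log2 fold change was 0.86 against 0.049 over all. Dcn was at 0.824 RPKM (E12.5) and 0.884 and 1.31 (E9.25) for ysE, 53.1 and 44.7 for mesoderm, 7.67 and 10.1 for liver and 1.77, 1.10, 29.0 and 6.6 for cystic EBs, 35.7-fold higher in mesoderm than in ysE of the same age (5.16 ± 1.45, adjusted p = 0.023). Nnat was 28.8-fold (adjusted p = 0.0011), Asb4 22.6-fold (adjusted p = 0.00038), Mest 22.3-fold and Ndn 20.2-fold higher. Slc38a4 (18.7-fold), Snrpn and Snurf (11.4-fold), Plagl1 (9.05-fold), Zim1 (6.28-fold) and Zdbf2 (5.22-fold) followed, and Ascl2, Kcnq1, Airn, Gnas, Cd81, Grb10 and Tssc4 were higher by 4.75-fold to 1.81-fold.

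Lower in mesoderm were Phlda2 by 15.4-fold (adjusted p = 0.00035), Ddc by 12.8-fold (adjusted p = 0.00018), Slc22a2 by 10.9-fold (adjusted p = 0.029), Slc22a18 by 8.50-fold and Slc22a3 by 5.89-fold. Sfmbt2, Cdkn1c, Impact and Rtl1 were lower by 5.10-fold to 1.95-fold. Erythroid markers summed to 42091 and 32458 RPKM in mesoderm against 821 and 986 in this ysE, and all 5 were called higher. Mesoderm B, which had the higher sum of ysE markers (1806 RPKM against 1026 in A), also had more Phlda2 (21.3 against 7.72) and Slc22a2 (3.72 against 1.83). Mesoderm A had more of the trophoblast marker Prl3d1, at 58.5 RPKM against 0.544 in B. The part of these cells in the differences was not tested. Leaving out any 1 of these 4 libraries ended the calls of Dcn, Slc22a2, Slc22a18, Cdkn1c, Airn, Grb10, Kcnq1 and Tssc4. Those of Ascl2, Zim1, Plagl1, Sfmbt2 and Rtl1 were lost without some of them.

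Liver against VYS mesoderm sets tissues of different germ layers, stages and library protocols side by side, and these cannot be told apart. There, 7 of the 45 genes were higher and 21 lower in liver (17.8% and 21.0% of all transcripts), with a median log2 fold change of -1.10 against -0.094 over all. Erythroid markers summed to 2160 and 3185 RPKM in liver against 42091 and 32458 in mesoderm (2 of 5 called lower), and VYS mesoderm markers to 105 and 77.5 against 1157 and 1023 (4 of 5 called lower), and their part was not tested. Cdkn1c (6.54-fold, adjusted p = 0.0063), Nespas (6.33-fold, adjusted p = 0.001) and Zim1 (6.17-fold, adjusted p = 0.017) led the higher genes. Zim1 was at 1.37 RPKM in ysE at E12.5 and at 0.304 and 0.394 there at E9.25, with 3.18 and 2.31 for mesoderm, 14.6 and 14.7 for liver and 6.84, 0.933, 5.59 and 4.04 for the cystic EBs. Kcnq1ot1, Meg3, Ppp1r9a and Grb10 were the other genes higher in liver, by 5.71-fold to 2.04-fold.

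Among the lower genes, Slc22a2 (63.9-fold, adjusted p = 0.0058), Phlda2 (21.3-fold, adjusted p = 0.00038), Magel2 (13.4-fold, adjusted p = 0.035) and Mest (11.2-fold) had the largest folds. Ndn (8.63-fold) and Slc22a18 (6.71-fold) came next. The others, Mirg, Sfmbt2, Mkrn3, Snrpn, Snurf, Nnat, Rian, Cd81, Copg2, Impact, Zdbf2, Gnas, Kcnq1, Sgce and Tssc4, were lower by 5.37-fold to 2.14-fold. Rian, Kcnq1 and Grb10 were no longer called when any 1 of the liver or mesoderm libraries was left out, nor was Zim1. Without liver B the calls of Magel2, Mkrn3, Nnat, Sfmbt2, Snrpn, Mirg, Tssc4 and Zdbf2 were lost, and without mesoderm A those of Slc22a18, Magel2, Mkrn3, Nnat, Zdbf2, Ppp1r9a and Tssc4. Leaving out liver A or mesoderm B ended some of these calls as well.

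Between d10 and d15 of differentiation, 0 of the 45 genes and 0 of 22452 transcripts were called in either direction (0% higher and 0% lower; median log2 fold change 0.11 and -0.000383), in edgeR's test of 2 libraries against 2. At an unadjusted p below 0.05 there were 304 transcripts and, of the 45 genes, Dcn, which was 12.9-fold higher at d15 (3.68 ± 0.89, unadjusted p = 0.0095, adjusted p = 1). DESeq2 called 17 transcripts, all higher at d15, with Dcn among them (adjusted p = 0.027). With the clone as a block edgeR called 0, and Dcn had an adjusted p of 0.37. In that fit 8 of the 45 genes and 2392 of 22452 transcripts had an unadjusted p below 0.05. H19 (1.97-fold, unadjusted p = 0.0089) and Dlk1 (2.33-fold, unadjusted p = 0.012) were among them, both higher at d15. Dcn was higher at d15 in both clones, at 29.0 against 1.77 RPKM in A9 and at 6.6 against 1.10 in JN.

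Between the clones, with the day as a term of the fit, 4 of the 45 genes were higher and 5 lower in JN than in A9, beside 10.1% and 7.90% of all transcripts (median -0.58 against 0.00653). H19 had the largest difference, with 908 and 1616 RPKM in A9 against 88.9 and 197 in JN, 9.61-fold lower in JN (-3.26 ± 0.25, adjusted p = 0.0041). Peg10 was 3.31-fold (adjusted p = 0.0094), Dlk1 2.94-fold (adjusted p = 0.035), Cdkn1c 2.80-fold (adjusted p = 0.014) and Kcnq1ot1 1.90-fold (adjusted p = 0.024) lower in JN. Dlk1 was at 3.93 RPKM (E12.5) and 2.96 and 4.20 (E9.25) for ysE, 13.5 and 11.5 for mesoderm, 13 and 21.5 for liver and 7.04, 1.60, 10.6 and 5.91 for cystic EBs. Rian (3.38-fold, adjusted p = 0.0065), Mirg (2.80-fold, adjusted p = 0.032) and Snrpn with Snurf (2.16-fold, adjusted p = 0.016) were higher in JN.

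Paternally and maternally expressed genes occurred in both directions. In the Dlk1-Dio3 cluster the maternal RNAs Rian and Mirg and the paternal Dlk1 went opposite ways, and the other 2 of its 5 genes were not called. The maternal Meg3 was at 3.49 and 4.73 RPKM in A9 and 3.02 and 2.31 in JN. The paternal Rtl1 was at 3.29 and 2.56 in A9 and 2.37 and 3.09 in JN, so no split by parent is read from this cluster. The summed pluripotency markers were 79.1 and 102 RPKM in A9 against 317 and 223 in JN (2 of 4 called higher in JN). The summed ysE markers were 373 and 1211 in A9 against 107 and 456 in JN (4 of 6 called lower). Single markers did not all follow the sums. Amn was at 3.19 and 1.82 RPKM in A9 and 5.27 and 12.4 in JN, and Afp at d10 at 25.8 in A9 and 35.1 in JN. Pou5f1 was at 53.4 and 64.6 in A9 and 76.8 and 39.1 in JN. The part of cells with these markers in the clone difference was not tested, and the clones also differ in sex and in library protocol. In clone JN against E9.25 ysE, within the dUTP libraries, 32 of the 45 genes were called (33.7% of all transcripts higher and 27.2% lower in this fit), among them all 29 of the fit over all libraries, and Peg10, H19 and Cdkn1c were added, each lower in cystic EBs (Cdkn1c by a log2 fold change of -1.84, adjusted p = 0.0014, Peg10 by -2.03, adjusted p = 0.00013). The cystic EB libraries of this fit are all of JN, so its p-values do not extend to other clones.

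**Figure D4:**
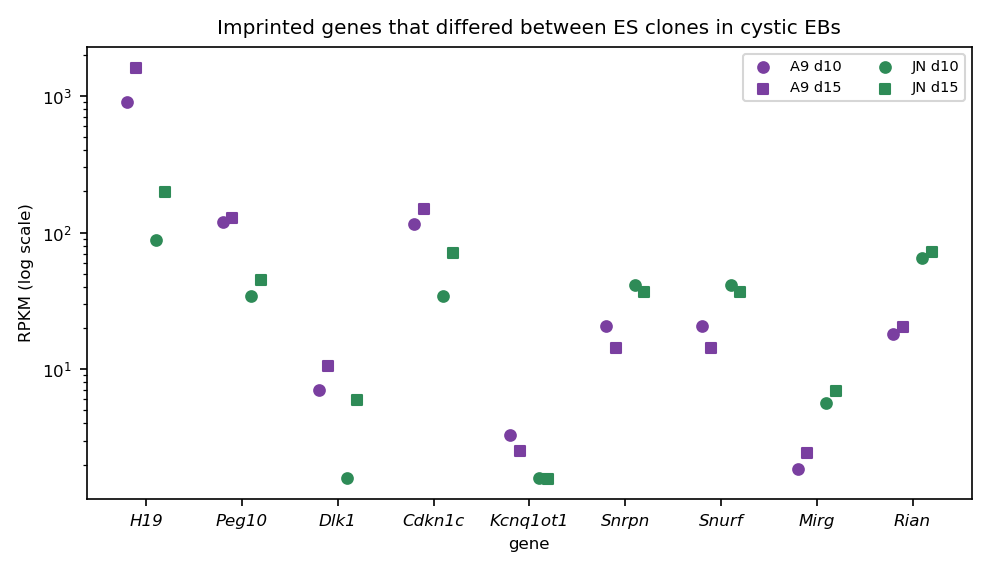
RPKM on a log axis of the genes that differed between ES clones, for clone A9 and clone JN at d10 and d15. H19 was at 908 and 1616 in A9 and at 88.9 and 197 in JN, while Rian was at 18 and 20.5 in A9 and at 64.6 and 72 in JN.

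A list of 40 further imprinted genes, drawn from the same clusters and elsewhere, was tested in 37. In cystic EBs, 4 were above (10.8%) and 8 below (21.6%) the ysE of E12.5, with a median log2 fold change of 0.37, beside 21.1% and 18.8% of all transcripts. Against E9.25 ysE, 8 were above (21.6%) and 12 below (32.4%), with a median of -0.33, beside 27.1% and 23.2%. Peg12, an intronless gene of the Snrpn cluster, had 0 counts in ysE at E12.5, 27 and 47 there at E9.25 and 605, 1016, 280 and 1007 in cystic EBs, 23.3-fold above E9.25 ysE (adjusted p = 8.5e-05). Tnfrsf22, a decoy receptor of the Kcnq1 cluster, had 0 counts in ysE at E12.5 and 2 and 15 there at E9.25, against 23, 165, 10 and 123 in cystic EBs (10.3-fold over E9.25, adjusted p = 0.018). Pon1, a lipoprotein-bound esterase, was 15.4-fold above E9.25 ysE on 1 and 0 counts there and 9, 10, 1 and 16 in cystic EBs, while Gatm, an enzyme of creatine synthesis, was 7.16-fold above E12.5 and 4.65-fold below E9.25 ysE.

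Plg and Tfpi2, which lie in the Igf2r and Peg10 clusters, were lower too. Plg, the precursor of plasmin, was at 127 RPKM in ysE at E12.5, 23.8 and 30.4 there at E9.25 and 1.34, 0.199, 0.888 and 0.363 in cystic EBs, 236-fold and 53.4-fold lower (adjusted p = 8.6e-05 and 0.00016). Tfpi2, a protease inhibitor, was at 16.7 RPKM in ysE at E12.5, 8.49 and 6.89 there at E9.25 and 0.294, 0.115, 0.637 and 0.139 in cystic EBs, 73.7-fold and 36.0-fold lower (adjusted p = 0.00016 and 0.00017). Dhcr7, the last enzyme of cholesterol synthesis, was 6.35-fold below E12.5 ysE, and Inpp5f, a phosphoinositide phosphatase, 5.32-fold below E9.25 ysE.

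Among 12 genes that keep or read imprints, cystic EBs were above ysE of E12.5 in 3 and below it in 1, above ysE of E9.25 in 3 and below it in 2, and above liver in 3 and below it in 5. Of all transcripts, 21.1% and 18.8%, 27.1% and 23.2%, and 24.6% and 20.9% were, so with 12 genes nothing is read from these counts. Zfp57, which holds methylation at imprinting control regions, was at 8.37 to 10.7 RPKM over the ysE libraries, 2.56 and 1.30 for liver and 12.2 to 15.0 for cystic EBs, 5.67-fold above liver (adjusted p = 0.00031) and not called against ysE. Zfp445, its partner in that role, was 1.55-fold above E9.25 ysE and 1.79-fold below liver. Dnmt3l, a cofactor of de novo methylation, was at 6.07 to 30.7 RPKM in cystic EBs and at no more than 0.0250 over the ysE libraries, and Dppa3, a protector of methylation in the zygote, was at 1.04, 10.8, 0.577 and 6.49 RPKM against 0 in both liver libraries and the E12.5 ysE library. Both are also expressed in pluripotent cells.

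Ehmt2, a histone H3 lysine 9 methyltransferase, was lower than in either ysE stage (3.09-fold and 2.49-fold), Eed, a polycomb subunit, 2.02-fold above E12.5 ysE, and Ctcfl, a germ cell relative of Ctcf, 5.72-fold below E9.25 ysE at no more than 0.153 RPKM in any library. Ctcf, the insulator protein of the Igf2-H19 locus, Dnmt1, the maintenance methyltransferase, Setdb1, a histone methyltransferase, and Uhrf1, which guides Dnmt1, were called against liver, each lower in cystic EBs by 1.53-fold to 2.87-fold. Trim28, the corepressor that ZFP57 recruits, was not called between cystic EBs and ysE of either stage or liver. It was 4.40-fold higher in JN than in A9 (adjusted p = 0.0045), where Dppa3 (10.3-fold) and Uhrf1 (2.85-fold) were higher too.

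Methylation was read at CpGs within 1 kb of the 55 starts (except, in liver, the 3 starts of Slc38a4 on chromosome 15, not analysed here), in E12.5 ysE, E12.5 liver and d15 cystic EBs of both crosses, the cystic EBs being from other ES clones than those of the RNA. On average 1.80 to 2.21 reads covered a called CpG. A read was counted once for each called CpG it covered, so the reads given for a window are sums over its CpGs. The counts of starts use only windows with at least 10 reads in both libraries of a tissue, so most starts were lost. Single values are also given where only 1 library of a tissue had 10 reads, and such a value has no replicate. A control region methylated on 1 parental chromosome gives intermediate values. Both libraries lay between 30% and 70% at 1 of 22 starts in ysE (all gene starts 15.8%), at 3 of 15 in liver (13.3%) and at 2 of 10 in cystic EBs (10.5%). These were Phlda2 in ysE, Peg3, the adjoining Usp29 and Mkrn3 in liver, and Kcnq1ot1 and the inner start of Asb4 in cystic EBs. In liver the starts of Peg3 and Usp29 share their reads, so the count of 3 rests on 2 measurements. With 2 libraries against 2 an exact permutation p cannot be below 0.33, so values are described.

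At the start of Nnat, whose upstream sequence is printed above, methylation was 97.8% (91 reads) and 96.6% (29 reads) for ysE, 69.6% and 76.0% for liver and 90.9% and 75% for cystic EBs, in the order CxF and FxC. Both ysE libraries lay above all others, and Nnat RNA was at most 7.51 RPKM in ysE. At the Snrpn and Snurf start it was 96.9% in the CxF library of ysE (32 reads) and complete in the FxC library (all of 10 reads), where Snrpn RNA was lowest, and 53.8% (26 reads) in the FxC library of liver, with fewer than 10 reads in the others. At the inner Mest start it was 64.5% and 75% in ysE (31 and 20 reads) and 89.4% of 47 reads and all of 33 reads in cystic EBs, while Mest RNA was higher in cystic EBs. Plagl1 was at 85.7% and 78.9% for ysE, 91.7% and 83.3% for liver and 88.9% and 85.7% for cystic EBs, with no tissue apart.

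Over all starts covered in both tissues, ysE lay above liver with both libraries at 1 of 9 (Nnat; 8.17% of all gene starts) and below at 0 of 9 (30.9%). It lay above cystic EBs at 1 of 7 (Nnat; 6.66%) and below at 3 of 7 (Zim1 and the pair of Mest starts 3 bases apart, which share their reads; 40.0%). Liver lay above cystic EBs at 1 of 4 (Kcnq1ot1; 11.5%) and below at 1 of 4 (Zdbf2; 27.7%). Each of these counts rests on at most 3 starts.

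**Figure D5:**
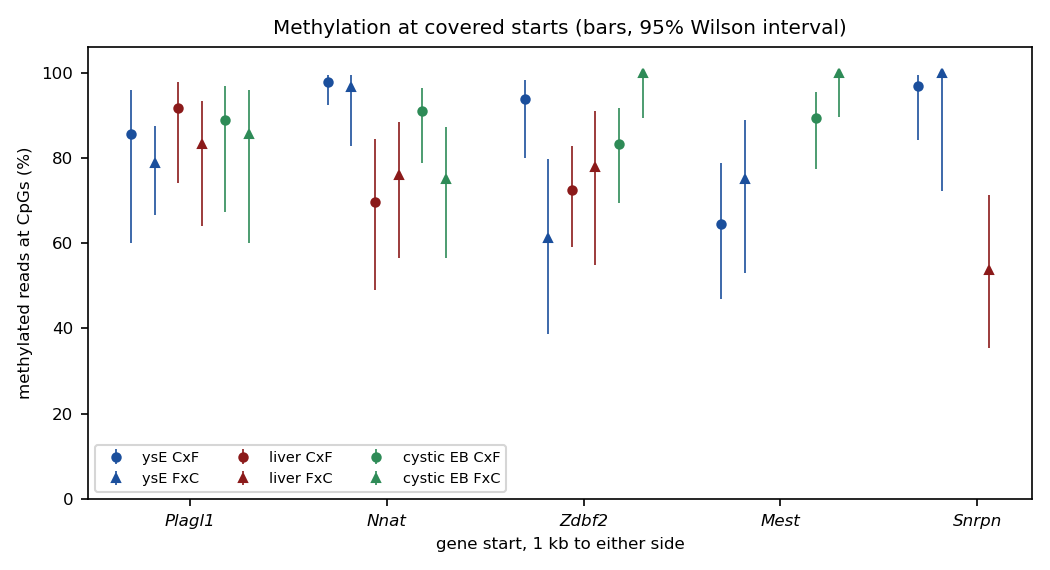
Percent of methylated reads at CpGs within 1 kb of the starts of Plagl1, Nnat, Zdbf2, Mest and Snrpn, by library. Bars give the 95% Wilson interval of counting error, which takes the reads summed over CpGs as independent. Nnat was at 97.8% and 96.6% in ysE and at 69.6% and 76.0% in liver.

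The histone mark H3K4me3, which marks active promoters, was mapped in whole E12.5 VYS in 1 library. A peak lay within 1 kb of 43 of the 55 starts (78.2%), against 45.5% of all gene starts. Of the 36 genes with a start, 33 had a peak at 1 or more of their starts, and Ascl2, Rian and Mirg had none. The starts of Nnat, Snrpn, Mest and Plagl1 printed above each had one, and Nnat, Snrpn and Mest RNA was low in ysE. The VYS holds both layers and was not separated for this assay.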

How the data were processed

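RNA-seq, bisulfite sequencing and H3K4me3 ChIP-seq of mouse tissues and cystic EBs were analysed from deposited files. The authors aligned reads with GSNAP to mm10 and deposited raw counts per RefSeq transcript and RPKM values, made with RSeQC and custom scripts. Whether counting used strand is not given in the sources used here. For bisulfite libraries the authors deposited, per CpG, a methylation percent and its number of reads, called with BisSNP. For H3K4me3 they deposited peaks with the MACS (1.4.2) score, pooled over litters, 22343 peaks with scores of 50.06 to 3233.06.

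Counts were fitted in R 4.3.3 with edgeR 4.0.16 (limma 3.58.1), using filterByExpr, TMM factors of 0.766 to 1.21 and the quasi-likelihood test over 11 libraries in 5 groups, with Benjamini-Hochberg adjustment over all transcripts and an FDR of 5%. Days and clones were compared within the 4 cystic EB libraries. Library totals were 40453779 to 169981821 counts. Where labels do not give separate cultures, p-values measure only the spread between these libraries. DESeq2 1.42.0, other filters and normalizations, a replicate block and leaving out libraries were alternatives. Plots and summaries used Python 3.11.15, pandas 2.3.3, numpy 2.4.6, scipy 1.17.1 and matplotlib 3.10.9; plots add 0.1 to RPKM before taking log2, and each gene start used 1 kb to either side with at least 10 reads. Intervals are Wilson intervals at 95% and cover counting error only. They take the reads summed over CpGs as independent, so they can be too narrow where 1 read covers several CpGs.

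The replicate letter of cystic EBs is the ES clone, and the deviations of d10 and d15 libraries from their means correlated across transcripts at r = 0.638, so the letters pair these samples. Other groups share only a letter.

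Values in every library are given for 12 genes of the multi-lineage and extra-embryonic groups that the study considers (not all such genes) and for up to 3 genes per direction and comparison with the largest folds among those called whose libraries do not overlap. The genes and lists were chosen with earlier results of these data known. Columns of no sample of the series numbered 0. Methylation on chromosomes 19, X and Y, and for liver on chromosome 15, was not analysed here.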

Additional observations from a re-analysis of the deposited data

Results flagged for a closer look

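Among the 4 cystic EB libraries, 2 of the 45 genes had a value far from the other libraries by Dixon's test. By chance alone this test flags about 1 gene in 20, so nothing is read from the count of 2. Cd81 was at 137 RPKM in d15 JN against 93.1 to 96.1 in the others, and Sfmbt2 was at 13.2 RPKM in d15 A9 against 4.87 to 5.82.

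For 5 genes the ratio of d15 to d10 RPKM went opposite ways by more than 1.5-fold in the clones. The ratio in A9 and in JN was 0.507 and 2.05 for Igf2r, 0.529 and 2.03 for Peg3, 0.631 and 2.24 for Usp29, 0.404 and 2.05 for Mest and 0.479 and 1.93 for Asb4. Each clone had 1 library per day, so this difference between the clones was not tested. The rule was not applied to all transcripts, so nothing is read from the count of 5.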

How the results depend on the processing

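No call of one of the 45 genes changed direction under any alternative run. Single genes were followed in 240 pairs of a gene and a comparison, those called and those of the 12 genes given in every library, so that gains of other genes are not counted. Over these, 3478 values kept their direction and side of the threshold, 58 gained and 221 lost a call. For E12.5 against E9.25 ysE (7 genes called), DESeq2's Wald test called 12 (9.29% of all transcripts higher, 8.64% lower) and a fit restricted to the libraries of both stages 31 (25.1% of all transcripts higher, 25.2% lower), in which the spread comes from 2 libraries. Leaving out libraries gave 1 to 13 there (1.42% to 11.5% of all transcripts), 1 without either E9.25 ysE library and 13 without d10 JN. DESeq2's test called 1 gene for d15 against d10 (0 in edgeR; 0.0757% of all transcripts, all higher) and 18 between the clones (9; 13.8% higher and 14.2% lower). For cystic EBs against E12.5 ysE it called 13 genes higher and 15 lower, where edgeR called 8 and 15. Of all transcripts, DESeq2's test called 24.9% higher and 20.8% lower there. Leaving out libraries gave 16 to 30 for mesoderm against E9.25 ysE (27; 16.4% to 33.9% of all transcripts; 16 and 17 genes without an E9.25 library of either layer) and 15 to 31 for liver against mesoderm (28; 19.8% to 43.4%; 17 genes without mesoderm A, 15 without liver B). It gave 21 to 26 for cystic EBs against E12.5 ysE (23; 35.6% to 42.3%), 22 to 32 against E9.25 ysE (29; 30.9% to 52.3%), 17 to 28 against liver (25; 26.9% to 48.5%) and 21 to 30 for liver against E12.5 ysE (25; 36.5% to 49.6%). DESeq2 size factors moved the median of all transcripts from -0.094 to 0.0166 for liver against mesoderm and from -0.205 to -0.0423 between the ysE stages, where calls over all transcripts went from 969 higher and 1137 lower to 1240 and 876. A fit of only the groups compared called 17 genes for cystic EBs against E12.5 ysE (9 higher, 8 lower; 14.3% and 13.2% of all transcripts), 20 against liver (14 and 6; 19.7% and 18%), 28 against E9.25 ysE (18 and 10; 25.3% and 20.9%), 33 for liver against E12.5 ysE (16 and 17; 31% and 27.8%), 39 for mesoderm against E9.25 ysE (25 and 14; 30.3% and 30%) and 39 for liver against mesoderm (12 and 27; 28.2% and 31.8%). The causes were not tested.

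With the replicate letter as a block, 25, 31, 27, 27, 8, 26 and 29 genes were called in the 7 tissue comparisons, in the order of the report, and 0 between the days. In those fits 21.3% and 19.8%, 26.9% and 25.2%, 24.9% and 21.9%, 24.5% and 23.7%, 3.63% and 4.19%, 17.6% and 14.6%, and 18.5% and 22.8% of all transcripts were higher and lower. Calls at the threshold (Tssc4 and Meg3 in cystic EBs, Sgce between the ysE stages) were the ones lost most often. Letters other than those of cystic EBs share only a letter (r of -0.0859 to 0.174).

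Methylation counts depended on the window and coverage, and percents in parentheses are shares of all gene starts. Starts between 30% and 70% in ysE (1 of 22) numbered 0 of 7 within 500 bp (9.85%), 9 of 42 within 2 kb (28.3%), 6 of 36 at 5 reads or more (15.4%), 1 of 1 at 30 reads (11.4%) and 9 of 22 with bounds of 20% and 80% (34.5%). With 1 library left out, only the other had to be covered and lie within the bounds, and they numbered 8 of 27 (36.4%) and 17 of 36 (35.8%). In liver (3 of 15) they numbered 0 of 3 (7.08%), 5 of 34 (20.2%), 4 of 30 (1838 of all 14736 starts) and 8 of 15 (30.8%), without the 30-read setting. With 1 liver library left out they numbered 13 of 27 (31.8%) and 9 of 24 (32.5%). In cystic EBs (2 of 10) there were 1 of 4 within 500 bp (6.38%), 6 of 38 within 2 kb (15.9%), 3 of 27 at 5 reads (9.94%), 0 of 3 at 30 reads (7.62%) and 3 of 10 with the wider bounds (23.7%). With 1 cystic EB library left out there were 5 of 18 (28.3%) and 7 of 29 (25.5%). Starts without overlap numbered 0 of 2 within 500 bp, 8 of 28 within 2 kb and 9 of 25 at 5 reads for ysE and liver (1 of 9), 1 of 3, 22 of 35 and 8 of 19 for ysE and cystic EBs (4 of 7), and 13 of 26 within 2 kb and 4 of 17 at 5 reads for liver and cystic EBs (2 of 4). Within 2 kb, ysE lay above liver at 1 of 28 starts (7.13%) and below at 7 (36.3%), above cystic EBs at 4 of 35 (5.22%) and below at 18 (46.1%), and liver lay above cystic EBs at 3 of 26 (11.4%) and below at 10 (28.7%). At 5 reads the counts in that order were 5 and 4 of 25 (8.48% and 30.5%), 3 and 5 of 19 (5.99% and 40.0%), and 2 and 2 of 17 (10.4% and 26.6%). No start had 30 reads in both libraries of liver or of the tissue pairs, and leaving out a library in the clone comparison leaves no residual degrees of freedom.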
